A study of Mus musculus with 10 samples.

Results

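The 45 DNA replication genes described here code for proteins that license replication origins, unwind DNA, copy it, join its fragments, make its nucleotides and package it. They were picked by symbol from the 31053 genes counted on 10x Genomics Visium slides. On these slides, spots under a thin frozen section capture RNA, and each captured molecule is counted once as a unique molecular identifier (UMI). All 45 symbols were found, each in 1 row, and all averaged at least 1 UMI per 1000000 (CPM) over the 7 tissues.

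The study modelled childhood liver cancer in ABC-Myc mice, which carry 1 copy each of a Cre recombinase driven by the albumin promoter (Alb-Cre) and of a human MYC transgene (CAG-MYC) that Cre switches on, on a C57BL/6J background. Controls were littermates lacking at least 1 of these alleles. There were 10 sections of 7 tissues, with 1 section each of NEJ634, NEJ723, NEJ687, NEJ638, NEJ654 and NEJ677 and 4 adjacent sections of NEJ146. Every label names hepatoblastoma. The study's text counts 4 tumours and 3 healthy livers and names NEJ634, NEJ723, NEJ687 and NEJ146 as tumours, so NEJ638, NEJ654 and NEJ677 are called livers below as the remainder, although none of the sources used here names them so. The genotype and age of the animal behind each section are not given in the sources used here, and human MYC has no row among the counted genes. Since the labels do not separate tumours from livers, nothing was tested between them, and each tissue is 1 animal. Values after ± are the SD over the 4 NEJ146 sections, which covers sectioning and library making in 1 tissue and not the spread between animals. Counts summed over a section cannot tell fewer cycling cells from less replication RNA per cell, and a spot is a region that can hold several cells.

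DNA is copied once per cell cycle, in S phase. In G1 phase the origin recognition complex, CDC6 and CDT1 load the ring of MCM2 to MCM7 onto origins, and geminin later stops CDT1 from loading it again. CDC45 and the GINS complex turn the ring into a moving helicase, the clamp PCNA holds polymerases on the template, and E2F factors switch many of these genes on as cells enter the cycle. Genes of mitosis such as Mki67, a marker of cycling cells, peak later, under complexes that bind the CHR element. Adult hepatocytes are mostly at rest, while hepatoblastoma cells divide.

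Promoter sequences are shown for the genes of 2 MCM subunits, a polymerase and a chromatin factor and for Mki67 as the contrast, since replication and mitosis genes carried different letters in the windows around their starts. RefSeq windows from 250 bases before to 50 after a gene's start (build GRCm38.p6) were found for 37 of the 45 replication genes and 22 of 25 mitosis genes. An E2F site was searched as TTTCCCGC, TTTCGCGC, TTTGCCGC or TTTGGCGC and the CHR element as TTTGAA, and overlapping matches were joined. All motifs here were read on both strands. Capitals mark matches, as E2F letters in the first 4 sequences and CHR letters in Mki67. Each sequence holds 120 bases read 5′ to 3′ along the gene and no annotated exon, and the Uhrf1 stretch lies within the annotated Uhrf1 gene, before one of its starts.
Mcm5, chr8:75109346-75109465, plus strand: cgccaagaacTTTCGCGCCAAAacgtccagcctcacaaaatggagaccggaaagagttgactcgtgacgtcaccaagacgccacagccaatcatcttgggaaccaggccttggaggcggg
Mcm6, chr1:128359706-128359825, minus strand: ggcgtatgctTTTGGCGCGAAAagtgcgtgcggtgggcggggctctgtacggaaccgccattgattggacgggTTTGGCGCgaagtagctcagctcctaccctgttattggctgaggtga
Pola1, chrX:93632184-93632303, minus strand: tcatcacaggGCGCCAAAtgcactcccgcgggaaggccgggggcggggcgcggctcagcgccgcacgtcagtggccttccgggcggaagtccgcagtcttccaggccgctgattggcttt
Uhrf1, chr17:56304118-56304237, plus strand: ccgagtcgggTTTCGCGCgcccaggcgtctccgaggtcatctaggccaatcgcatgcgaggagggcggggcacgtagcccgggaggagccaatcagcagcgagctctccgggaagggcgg
Mki67, chr7:135716380-135716499, minus strand: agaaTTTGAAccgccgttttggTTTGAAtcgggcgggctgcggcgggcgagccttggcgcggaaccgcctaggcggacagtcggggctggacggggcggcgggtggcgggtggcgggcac
In Mcm5 the capitals are 2 overlapping matches, in Mcm6 they are 3 matches of which 2 overlap, and in Pola1 the match reads on the other strand. Some genes have more than 1 window, and a gene was counted once if any of its windows held a match. E2F letters were found for 14 of 37 replication genes (37.8%), 1 of 22 mitosis genes (4.55%) and 2.60% of 27025 genes. CHR letters ran the other way, found for 5 of 37 (13.5%), 17 of 22 (77.3%) and 20.2% of all genes. CCAAT, the letters of a box that NF-Y binds, was found for 24 replication genes (64.9%), 20 mitosis genes (90.9%) and 41.1% of all genes. CACGTG, an E-box that MYC can bind, was found for 7 replication genes (18.9%), 1 mitosis gene (4.55%) and 8.09% of all genes. By role, E2F letters were found for 3 of 4 origin licensing genes and 4 of 5 MCM genes, and for 0 of 5 nucleotide supply and 0 of 3 single-strand binding genes. The 14 genes were Orc1, Cdc6, Cdt1, Mcm3, Mcm5, Mcm6, Mcm7, Gins3, Rfc3, Pola1, Pold1, Pole2, Lig1 and Uhrf1. A match is a run of letters in this window and not a measured binding site.

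The sections held 61627315 to 117556249 UMIs, and 1890 to 4878 spots per section counted as tissue. The share of mitochondrial UMIs was 6.78% to 7.22% in NEJ146 and 2.46% to 3.86% in the other tissues. NEJ146 was also labelled total RNA where the others were labelled polyA RNA, and its processing notes name other software, so for NEJ146 tissue and batch cannot be told apart. Foetal liver and hepatoblastoma markers (Afp, Igf2, Dlk1, Gpc3) summed to 2136 to 4630.4 CPM in the 4 tumours and 4.61 to 15.0 CPM in the livers. Hepatocyte markers summed to 3849.9 to 9336 CPM in the tumours and 17477 to 18827 CPM in the livers. Red cell precursor markers ran from 950.3 CPM in NEJ634 and 2551 in NEJ723 to 8849 in NEJ687 and 9540.1 in NEJ146, against 103 to 256 in the livers. The 13 genes of this list include the globin genes Hba-a1, Hba-a2, Hbb-bs and Hbb-bt. Their sum thus includes haemoglobin RNA and is not a count of dividing precursors. Markers of the neutrophil lineage summed to 349 to 1168 CPM in the tumours and 9.32 to 23.4 CPM in the livers, with 9 of 9 genes past 2-fold between the groups, as were 3 of 4 tumour markers, 11 of 13 red cell precursor markers and 1 of 9 macrophage markers (11.0% of all genes). Macrophage markers summed to 676.9 to 2249 CPM in the tumours and 405 to 679 CPM in the livers. Precursors of red cells and neutrophils also replicate DNA, and the part of any of these cells in the levels below was not tested.

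The summed replication level was higher in every tumour than in any liver. Summed over the 45 genes, the level was 2230.1 CPM in NEJ634 and 2148 in NEJ723, 1859 in NEJ687 and 1545 ± 90.6 in NEJ146, against 723 in NEJ638, 417 in NEJ654 and 362 in NEJ677. The 95% Poisson interval, which covers counting error only, was 2218 to 2242 CPM in NEJ634 and 356 to 368 CPM in NEJ677, and the 4 NEJ146 sections lay at 1482, 1502, 1518 and 1679 CPM. The lowest tumour was 2.14-fold above the highest liver, NEJ638. NEJ634 and NEJ723 differed by 0.05 on the log2 scale, less than the SD of 0.08 over the NEJ146 sections, and every other neighbour in this order differed by more under CPM. The order of NEJ687 and NEJ146 depends on the scaling. NEJ687 led by 0.27 log2 units under CPM and by 0.01 with TMM factors, and NEJ146 led with median-of-ratios factors, by which NEJ687 was at 1594 and NEJ146 at 1604. In these sums every tumour stayed above every liver under each scaling run. Orders of tumours for single genes are given under CPM.

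**Figure D1:**
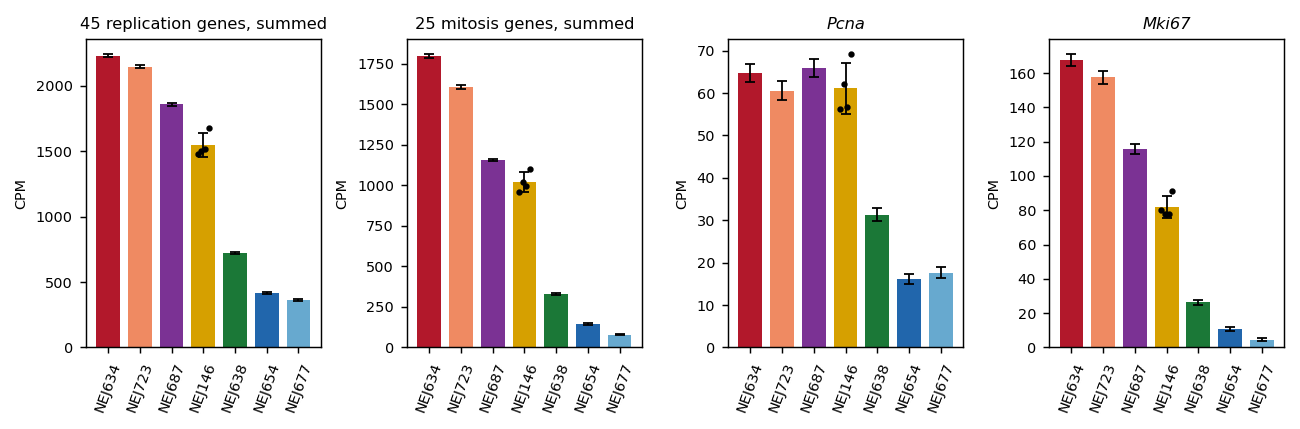
Level in CPM (vertical axes, from 0) of the summed 45 replication genes, the summed 25 mitosis genes, Pcna and Mki67 in the 7 tissues. Bars are 1 section, with 95% Poisson intervals, or for NEJ146 the mean of 4 sections (points) with its SD; the replication sum falls from 2230.1 CPM in NEJ634 to 362 in NEJ677, while Pcna lies at 60.6 to 65.9 CPM in all 4 tumours. With TMM factors, not plotted, the replication sum spans 1.09-fold over the tumours and Pcna 1.29-fold, though a single gene and a sum of 45 are not like for like.

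Under CPM the 25 mitosis genes followed the same order over a wider span. Their sum was 1797 CPM in NEJ634 and 1604 in NEJ723, 1155 in NEJ687 and 1020.0 ± 61.3 in NEJ146, against 331 in NEJ638, 144 in NEJ654 and 78.0 in NEJ677. The lowest tumour was 3.08-fold above the highest liver for these genes. The ratio of the replication sum to the mitosis sum was lower in every tumour than in any liver, at 1.24 in NEJ634 and 1.34 in NEJ723, 1.61 in NEJ687 and 1.52 in NEJ146, against 2.18 in NEJ638, 2.89 in NEJ654 and 4.64 in NEJ677. Within the 4 tumours the highest replication sum was 1.44-fold the lowest, against 1.76-fold for the mitosis sum. These spans were 1.09-fold and 1.40-fold with TMM factors and 1.11-fold and 1.44-fold with median-of-ratios factors, and both put the mitosis sum of NEJ146 above that of NEJ687.

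In 25 of the 45 replication genes the lowest tumour was at least 2-fold above the highest liver, on log2 of CPM plus 0.1. Of the 12648 genes that averaged 1 CPM or more, 11.0% met this, and 24 of the 25 mitosis genes did. All 4 tumours lay above all 3 livers in 42 replication genes, where 42.1% of all genes did so, and the exceptions were Mcm10, Gins3 and Rpa1. With TMM or median-of-ratios factors Tk1 and Slbp overlapped as well, which left 40 genes against 30.7% and 31.1% of all genes. The median distance from highest liver to lowest tumour was 1.12 log2 units for the replication genes and -0.17 for all genes. Without NEJ146 the count of 25 became 31 (16.4% of all genes), and without NEJ638, the liver closest to the tumours, 37 (16.2% of all genes). With a pseudocount of 5 CPM it became 11 (4.64% of all genes), and at 4-fold in place of 2-fold it was 0 (2.66% of all genes).

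**Figure D2:**
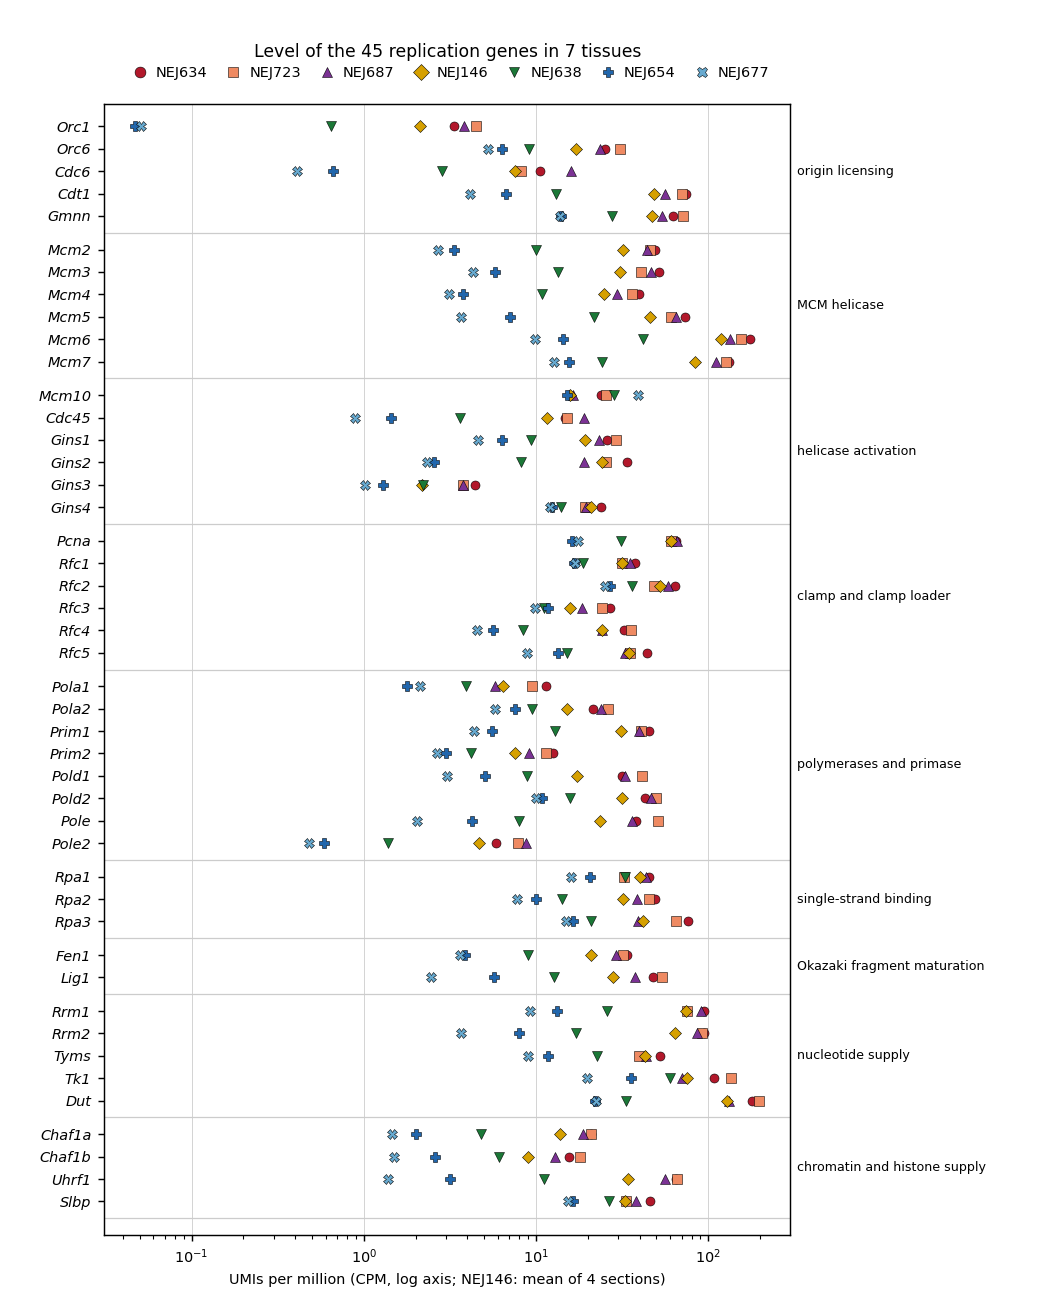
Level of each of the 45 replication genes (rows, grouped by role) in CPM on a log axis, with a symbol for each of the 7 tissues (NEJ146 as the mean of 4 sections). The 4 tumour symbols lie right of the 3 liver symbols in 42 rows; in Mcm10 the liver NEJ677 is farthest right, at 39.3 CPM.

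Origin licensing genes summed to 175 CPM in NEJ634 and 186 in NEJ723, 153 in NEJ687 and 122 ± 9.67 in NEJ146, against 53.5 in NEJ638, 27.7 in NEJ654 and 23.7 in NEJ677. Cdt1 (ENSMUSG00000006585, chromosome 8, 122568015 to 122573554 on GRCm38), which loads the MCM ring, was at 73.9 CPM in NEJ634 and 70.6 in NEJ723, 56.2 in NEJ687 and 48.7 ± 3.48 in NEJ146, against 13.1 in NEJ638, 6.73 in NEJ654 and 4.12 in NEJ677, so its lowest tumour was 3.72-fold above its highest liver. Cdc6, the ATPase that loads MCM with CDT1, was at 10.6 CPM in NEJ634 and 8.13 in NEJ723, 15.9 in NEJ687 and 7.58 ± 0.481 in NEJ146, against 2.83 in NEJ638, 0.659 in NEJ654 and 0.407 in NEJ677. NEJ687 was the highest tissue for Cdc6, where most members were highest in NEJ634 or NEJ723. Gmnn, which codes for the CDT1 inhibitor geminin, was at 62.4 CPM in NEJ634 and 71.6 in NEJ723, 54.1 in NEJ687 and 47.0 ± 4.33 in NEJ146, against 27.8 in NEJ638, 13.9 in NEJ654 and 13.8 in NEJ677. The groups did not overlap for Gmnn, but its lowest tumour was 1.69-fold above NEJ638. Orc1, the subunit of the origin recognition complex that comes and goes with the cycle, was at 2.12 to 4.49 CPM in the 4 tumours and 0.0471 to 0.645 in the 3 livers, and both NEJ654 and NEJ677 held 2 UMIs of it. Orc6, another subunit, was at 17.0 to 30.9 CPM in the 4 tumours and 5.24 to 9.16 in the 3 livers.

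All 6 subunits of the MCM helicase, which unwinds DNA at the fork, were at least 2-fold higher in the lowest tumour than in the highest liver (11.0% of all genes). Their sum was 521 CPM in NEJ634 and 465 in NEJ723, 429.7 in NEJ687 and 336 ± 18.6 in NEJ146, against 122 in NEJ638, 49.7 in NEJ654 and 36.5 in NEJ677. Between MCM2 and MCM5 lies the gate through which the ring opens onto DNA. Mcm2 was at 48.8 CPM in NEJ634 and 46.2 in NEJ723, 44.1 in NEJ687 and 32.1 ± 1.73 in NEJ146, against 10.1 in NEJ638, 3.34 in NEJ654 and 2.70 in NEJ677. Mcm5 was at 73.5 CPM in NEJ634 and 60.7 in NEJ723, 65.3 in NEJ687 and 45.9 ± 1.961 in NEJ146, against 21.6 in NEJ638, 7.04 in NEJ654 and 3.67 in NEJ677. Both were lowest in NEJ677 and had no tumour value among the livers. MCM4, MCM6 and MCM7 form a core that can unwind DNA by itself. Mcm4 was at 39.6 CPM in NEJ634 and 36.2 in NEJ723, 29.7 in NEJ687 and 24.8 ± 2.97 in NEJ146, against 10.8 in NEJ638, 3.77 in NEJ654 and 3.13 in NEJ677. Mcm6 was at 174 CPM in NEJ634 and 155 in NEJ723, 134 in NEJ687 and 119 ± 10.2 in NEJ146, against 42.0 in NEJ638, 14.3 in NEJ654 and 9.93 in NEJ677. Mcm7 was at 133 CPM in NEJ634 and 126 in NEJ723, 111 in NEJ687 and 83.3 ± 1.87 in NEJ146, against 24.2 in NEJ638, 15.6 in NEJ654 and 12.7 in NEJ677. For these core subunits both NEJ634 and NEJ723 were above NEJ687 and NEJ146 (39.7% of all genes). Mcm3, the partner of MCM5 in the ring, was at 52.1 CPM in NEJ634 and 40.5 in NEJ723, 46.5 in NEJ687 and 30.9 ± 1.73 in NEJ146, against 13.4 in NEJ638, 5.77 in NEJ654 and 4.33 in NEJ677, with NEJ687 above NEJ723. Under CPM NEJ634 was the highest tumour for each of the 6 subunits (31.1% of all genes) and NEJ146 the lowest (56.0% of all genes). With TMM factors these shares of all genes were 16.1% and 27.3%. The make-up of the ring's RNA stayed close across tumours, with Mcm6 taking 33.4%, 33.3%, 31.1% and 35.3% of the 6-gene sum in NEJ634, NEJ723, NEJ687 and NEJ146. In the livers, Mcm7 took 19.8% of it in NEJ638 and 34.8% in NEJ677, and Mcm5 17.7% and 10.1%.

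Helicase activation genes did not move as one group. The sum of these 6 genes was 126 CPM in NEJ634 and 118 in NEJ723, 101 in NEJ687 and 93.5 ± 3.75 in NEJ146, against 65.8 in NEJ638, 39.1 in NEJ654 and 60.2 in NEJ677. Cdc45, which joins MCM and GINS in the active helicase, was at 14.7 CPM in NEJ634 and 15.1 in NEJ723, 18.9 in NEJ687 and 11.5 ± 0.485 in NEJ146, against 3.61 in NEJ638, 1.44 in NEJ654 and 0.891 in NEJ677. Mcm10 (ENSMUSG00000026669, chromosome 2, 4989714 to 5012791), which helps the assembled helicase to start, was at 23.7 CPM in NEJ634 and 25.4 in NEJ723, 16.3 in NEJ687 and 15.7 ± 1.07 in NEJ146, against 28.5 in NEJ638, 15.1 in NEJ654 and 39.3 in NEJ677. Mcm10 was the one replication gene with its highest level in a liver, and both NEJ638 and NEJ677 were above all 4 tumours. The 4 GINS subunits travel with the fork and differed from each other. Gins1 was at 19.1 to 28.9 CPM in the 4 tumours and 4.58 to 9.38 in the 3 livers. Gins2 was at 19.1 to 33.7 CPM in the 4 tumours and 2.34 to 8.15 in the 3 livers. Both passed 2-fold (11.0% of all genes), which the other subunits did not. Gins3 was at 2.18 to 4.44 CPM in the 4 tumours and 1.02 to 2.21 in the 3 livers. Gins4 was at 19.1 to 23.7 CPM in the 4 tumours and 12.1 to 14.0 in the 3 livers. For Gins3, NEJ146 at 2.18 ± 0.183 CPM was level with NEJ638 at 2.21. Helicase activation took 16.6% of the replication UMIs in NEJ677 but 5.43% in NEJ687, and without Mcm10, which alone gave 1544 UMIs in NEJ677, 6.48% and 4.59%.

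Under CPM, the sliding clamp and its loader differed least between tumours of the 9 role groups, at 1.23-fold. With TMM factors they spanned 1.19-fold, wider than helicase activation at 1.12-fold and the MCM helicase at 1.17-fold. Their summed level was 270.2 CPM in NEJ634 and 236 in NEJ723, 235 in NEJ687 and 219 ± 10.6 in NEJ146, against 121 in NEJ638, 90.6 in NEJ654 and 82.8 in NEJ677. Pcna (ENSMUSG00000027342, chromosome 2, 132249162 to 132253314), the clamp itself, was at 64.6 CPM in NEJ634 and 60.6 in NEJ723, 65.9 in NEJ687 and 61.1 ± 6.02 in NEJ146, against 31.3 in NEJ638, 16.2 in NEJ654 and 17.6 in NEJ677. Under CPM the 4 tumours lay within 1.09-fold of each other, and no neighbours among them differed by more than the SD over the NEJ146 sections. With TMM factors the span of Pcna was 1.29-fold, with NEJ146 highest and NEJ723 lowest, and so wider than the 1.09-fold of the replication sum. The lowest tumour was 1.93-fold above NEJ638, just short of 2-fold. The clamp is placed on DNA by a loader of 5 subunits. Rfc4 was at 32.6 CPM in NEJ634 and 35.5 in NEJ723, 24.2 in NEJ687 and 24.1 ± 1.14 in NEJ146, against 8.44 in NEJ638, 5.65 in NEJ654 and 4.53 in NEJ677. Rfc3 was at 26.9 CPM in NEJ634 and 24.3 in NEJ723, 18.5 in NEJ687 and 15.7 ± 0.438 in NEJ146, against 11.2 in NEJ638, 11.7 in NEJ654 and 9.90 in NEJ677. Rfc4 separated tumours from livers by 2.86-fold and Rfc3 by 1.34-fold. Rfc1, the large subunit, was at 31.5 to 37.4 CPM in the 4 tumours and 16.5 to 18.8 in the 3 livers. Rfc2 was at 48.6 to 64.3 CPM in the 4 tumours and 25.1 to 36.0 in the 3 livers. Rfc5 was at 33.0 to 44.3 CPM in the 4 tumours and 8.86 to 15.2 in the 3 livers. It was, with Rfc4, the only loader gene past 2-fold (11.0% of all genes).

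Polymerase and primase genes summed to 209 CPM in NEJ634 and 238 in NEJ723, 203 in NEJ687 and 137 ± 5.05 in NEJ146, against 64.5 in NEJ638, 38.6 in NEJ654 and 30.5 in NEJ677. Pole2, the second subunit of the leading strand polymerase epsilon, was at 5.85 CPM in NEJ634 and 7.88 in NEJ723, 8.71 in NEJ687 and 4.67 ± 0.454 in NEJ146, against 1.39 in NEJ638, 0.588 in NEJ654 and 0.484 in NEJ677. Pola1, the catalytic subunit of polymerase alpha that starts each strand, was at 11.4 CPM in NEJ634 and 9.53 in NEJ723, 5.80 in NEJ687 and 6.45 ± 0.576 in NEJ146, against 3.93 in NEJ638, 1.79 in NEJ654 and 2.11 in NEJ677. NEJ687 was the highest tissue for Pole2 and the lowest tumour for Pola1. Pole, the catalytic subunit of polymerase epsilon, was at 23.5 to 51.2 CPM in the 4 tumours and 2.04 to 7.99 in the 3 livers. Prim1, which makes the RNA primer, was at 31.0 to 45.1 CPM in the 4 tumours and 4.35 to 13.0 in the 3 livers. Pole, Pole2 and Prim1 passed 2-fold (11.0% of all genes). Prim2, the partner of PRIM1, was at 7.59 to 12.6 CPM in the 4 tumours and 2.65 to 4.18 in the 3 livers. Pola2, the regulatory subunit of polymerase alpha, was at 15.2 to 26.01 CPM in the 4 tumours and 5.75 to 9.42 in the 3 livers. Polymerase delta copies the lagging strand. Its catalytic subunit gene Pold1 was at 17.2 to 41.1 CPM in the 4 tumours and 3.03 to 8.81 in the 3 livers. Pold2, which codes for an accessory subunit, was at 31.4 to 49.9 CPM in the 4 tumours and 10.1 to 15.8 in the 3 livers. All 8 genes kept every tumour above every liver (42.1% of all genes).

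The replication protein A genes, whose trimer coats single-stranded DNA, summed to 171 CPM in NEJ634 and 143 in NEJ723, 121 in NEJ687 and 114 ± 6.03 in NEJ146, against 67.9 in NEJ638, 47.0 in NEJ654 and 38.6 in NEJ677. Rpa2 was at 49.2 CPM in NEJ634 and 45.6 in NEJ723, 38.6 in NEJ687 and 32.1 ± 1.58 in NEJ146, against 14.1 in NEJ638, 9.93 in NEJ654 and 7.71 in NEJ677. Rpa1 was at 45.5 CPM in NEJ634 and 32.5 in NEJ723, 43.8 in NEJ687 and 40.4 ± 1.19 in NEJ146, against 33.0 in NEJ638, 20.6 in NEJ654 and 16.0 in NEJ677. Rpa1 overlapped between tumours and livers, with NEJ723 at the level of NEJ638. Rpa3 was at 39.1 to 76.6 CPM in the 4 tumours and 14.9 to 20.7 in the 3 livers, without overlap. Lagging strand fragments are trimmed by FEN1 and sealed by LIG1. Fen1 was at 33.5 CPM in NEJ634 and 32.2 in NEJ723, 29.2 in NEJ687 and 20.8 ± 1.28 in NEJ146, against 8.97 in NEJ638, 3.88 in NEJ654 and 3.64 in NEJ677. Lig1 was at 47.7 CPM in NEJ634 and 53.8 in NEJ723, 37.7 in NEJ687 and 27.9 ± 0.597 in NEJ146, against 12.7 in NEJ638, 5.72 in NEJ654 and 2.44 in NEJ677. Both passed 2-fold (11.0% of all genes), and the group's sum was 48.7 to 86.0 CPM in the tumours and 6.08 to 21.7 in the livers.

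Nucleotide supply genes summed to 529 CPM in NEJ634 and 539 in NEJ723, 423 in NEJ687 and 385 ± 30.7 in NEJ146, against 159 in NEJ638, 90.6 in NEJ654 and 63.9 in NEJ677. Dut (ENSMUSG00000027203, chromosome 2, 125247190 to 125258608), which removes dUTP so that uracil stays out of DNA, was at 180.0 CPM in NEJ634 and 198 in NEJ723, 133 in NEJ687 and 128 ± 12.0 in NEJ146, against 33.2 in NEJ638, 22.0 in NEJ654 and 22.1 in NEJ677. Its lowest tumour was 3.85-fold above its highest liver, the widest separation of the 45. Rrm2, the cycle-limited subunit of the reductase that makes deoxynucleotides, was at 94.3 CPM in NEJ634 and 91.8 in NEJ723, 85.5 in NEJ687 and 64.2 ± 7.40 in NEJ146, against 17.0 in NEJ638, 7.98 in NEJ654 and 3.67 in NEJ677. Tk1, which salvages thymidine, was at 108 CPM in NEJ634 and 135 in NEJ723, 70.8 in NEJ687 and 75.02 ± 6.25 in NEJ146, against 59.8 in NEJ638, 35.7 in NEJ654 and 19.9 in NEJ677. Rrm2 separated tumours from livers by 3.77-fold and Tk1 by 1.18-fold, with Tk1 in NEJ638 close to NEJ687. Rrm1, the large reductase subunit, was at 74.7 to 94.2 CPM in the 4 tumours and 9.27 to 25.8 in the 3 livers. Tyms, which makes thymidylate, was at 39.4 to 52.8 CPM in the 4 tumours and 8.94 to 22.6 in the 3 livers. Of the 5 genes, Dut, Rrm1 and Rrm2 passed 2-fold (11.0% of all genes).

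Genes for chromatin and histone supply summed to 147 CPM in NEJ634 and 138 in NEJ723, 126 in NEJ687 and 89.9 ± 6.13 in NEJ146, against 48.5 in NEJ638, 24.0 in NEJ654 and 19.8 in NEJ677. Uhrf1, which brings the maintenance methyltransferase to newly copied DNA, was at 65.0 CPM in NEJ634 and 65.6 in NEJ723, 56.3 in NEJ687 and 34.1 ± 2.18 in NEJ146, against 11.2 in NEJ638, 3.15 in NEJ654 and 1.37 in NEJ677. Slbp, which binds the stem-loop of histone mRNAs, was at 46.1 CPM in NEJ634 and 33.4 in NEJ723, 37.9 in NEJ687 and 33.0 ± 4.52 in NEJ146, against 26.4 in NEJ638, 16.3 in NEJ654 and 15.4 in NEJ677. Uhrf1 separated tumours from livers by 3.05-fold and Slbp by 1.253-fold. Chaf1a and Chaf1b code for subunits of the factor that deposits histones behind the fork. Chaf1a was at 13.7 to 20.8 CPM in the 4 tumours and 1.45 to 4.81 in the 3 livers and passed 2-fold. Chaf1b was at 9.04 to 17.99 CPM in the 4 tumours and 1.502 to 6.14 in the 3 livers. Reads of overlapping genes may be shared: 23 of the 45 members overlap another annotated gene, 18 of them on the opposite strand, and strand use in counting is not given in the sources used here.

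Whether the replication genes ordered the tumours as Pcna or as Mki67 did was asked next. Mki67 (ENSMUSG00000031004, chromosome 7, 135689784 to 135716361) was at 168 CPM in NEJ634 and 157 in NEJ723, 116 in NEJ687 and 81.7 ± 6.33 in NEJ146, against 26.3 in NEJ638, 10.6 in NEJ654 and 4.56 in NEJ677. It set NEJ634 and NEJ723 above NEJ687 and NEJ146, whereas Pcna did not. The mean of the first pair exceeded that of the second by 0.74 log2 units for Mki67 and by -0.02 for Pcna. For the 45 replication genes the median of this difference was 0.40, between those markers, against 0.63 for the mitosis genes and 0.22 for all genes. The range ran from -0.24 in Cdc6 to 0.80 in Rpa3, and the difference was above 0 in 42 genes, all but Cdc6, Pcna and Rpa1, where 70.6% of all genes lay above 0.

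**Figure D3:**
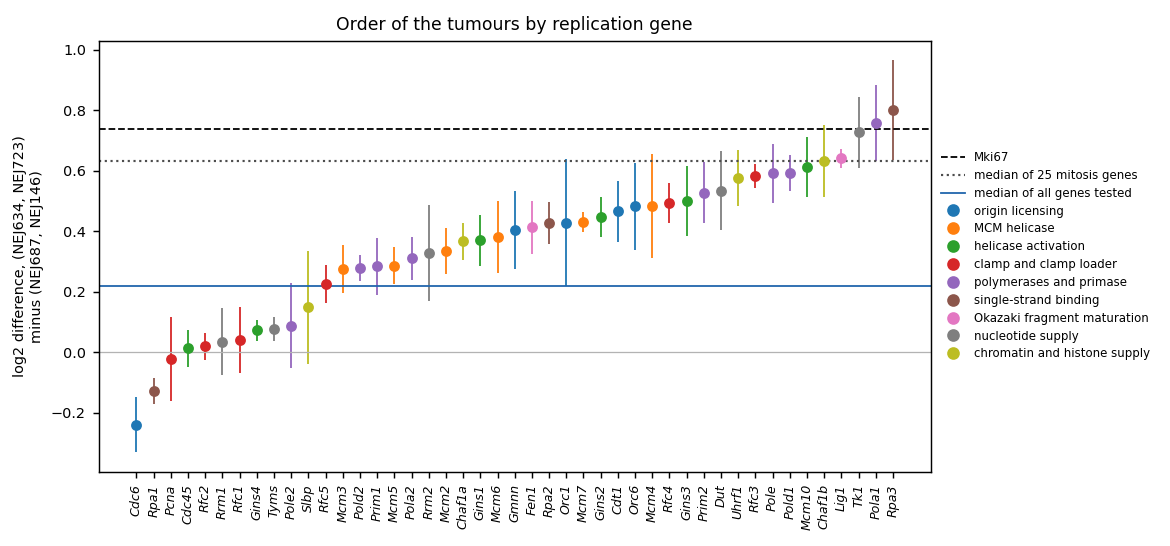
Mean log2 level in NEJ634 and NEJ723 minus that in NEJ687 and NEJ146 (vertical axis) for each replication gene, coloured by role and sorted, with the SD over the 4 NEJ146 sections as bars. Lines mark Mki67 (0.74), the mitosis median (0.63) and the median of all genes (0.22); Pcna, at -0.02, is among the lowest 3 of 45.

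The full order, with both NEJ634 and NEJ723 above both NEJ687 and NEJ146, held in 28 replication genes, against 39.7% of all genes and all 24 mitosis genes other than Mki67 itself. It held by more than the SD over the NEJ146 sections in 21, against 31.0% of all genes. Without NEJ146 it held in the same number, 28, against 45.6% of all genes. NEJ634 was the highest tumour for 25 replication genes (31.1% of all genes) and NEJ723 for 16 (34.4% of all genes). NEJ687 was so for 4 (24.0% of all genes), which were Cdc6, Cdc45, Pole2 and Pcna, and NEJ146 for 0 (10.5% of all genes) but was the lowest tumour for 35 (56.0% of all genes). The scaling mattered here. With TMM factors NEJ634 was highest for 16 (16.1% of all genes), NEJ723 for 17 (30.1%), NEJ687 for 5 (25%) and NEJ146 for 7 (28.9%), and NEJ146 was lowest for 22 (27.3%) and NEJ687 for 11 (22.1%). With TMM factors, which moved the all-gene median of the pair difference from 0.22 to -0.03, the full order held in 17 replication genes against 21.5% of all genes, and the difference was above 0 in 33 against 46.8% of all genes. The replication median stayed 0.18 above that of all genes under CPM and TMM, with Pcna at -0.27 and Mki67 at 0.49 under TMM.

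Each gene's centred log2 profile over the 4 tumours was also set against those of Pcna and Mki67 by the root mean square difference. Of the 44 genes other than Pcna, 26 were nearer to Mki67, against 36.3% of all genes and all 24 mitosis genes other than Mki67 itself. Under 16 other settings this count ran from 19 to 29, so whether most genes were nearer to Mki67 depended on the setting. Closest to Mki67 were Lig1 (0.11 log2 units), Chaf1b (0.12) and Uhrf1 (0.12). Closest to Pcna were Rfc1 (0.06), Rrm1 (0.10) and Rfc2 (0.11). By role, 2 of the 5 loader genes and 3 of 6 MCM genes were nearer to Mki67, as were 4 of 5 licensing genes and both Okazaki fragment genes. The profiles rest on 4 tissues, so the likeness is a description.

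NEJ638 stood apart from the other livers. Under CPM the replication sum there was 1.73-fold that of NEJ654 and 1.998-fold that of NEJ677. With TMM factors the gap was narrower, at 773 in NEJ638, 491 in NEJ654 and 455 in NEJ677. In 43 of 45 genes NEJ638 was the highest liver, all but Mcm10 and Rfc3, where 60.3% of all genes were. It was at least 2-fold above both others in 17 under CPM, against 4.17% of all genes and 18 of 25 mitosis genes. With TMM factors this count was 15, for which the share of all genes was not taken. Those 17 held Mcm2 to Mcm6 but not Mcm7, and no clamp or loader gene. The tumour marker sum in NEJ638 was 15.0 CPM, against 4.61 in NEJ654 and 5.55 in NEJ677, far below the tumours. Of 5 collagen genes, 4 were higher in NEJ638 than in the other livers, as were 8 of 9 neutrophil genes and 3 of 4 bile duct genes (60.3% of all genes). So were 2 of 4 tumour markers, 5 of 13 red cell precursor markers, 2 of 10 hepatocyte markers and 1 of 9 macrophage markers. The neutrophil sum was 23.4 CPM in NEJ638 against 9.74 in NEJ654 and 9.32 in NEJ677, and the bile duct sum 131 against 71.7 and 77.4. The part of any of these in its replication level was not tested.

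A second list held 43 other replication genes. In 18 of them the lowest tumour was at least 2-fold above the highest liver (11.0% of all genes), and in 39 every tumour was above every liver (42.1% of all genes). The Mki67 order held in 25 of them (39.7% of all genes) and 26 were nearer to Mki67 than to Pcna (36.3% of all genes). Ccne1, the cyclin that drives entry into S phase, had the widest separation, at 41.4 CPM in NEJ634 and 53.0 in NEJ723, 74.1 in NEJ687 and 39.7 ± 1.65 in NEJ146, against 6.33 in NEJ638, 0.988 in NEJ654 and 1.247 in NEJ677. Ticrr, which helps to fire origins, followed at 7.66 CPM in NEJ634 and 8.91 in NEJ723, 6.495 in NEJ687 and 3.28 ± 0.111 in NEJ146, against 0.703 in NEJ638, 0.188 in NEJ654 and 0.102 in NEJ677. At the other end Pold4, a small subunit of polymerase delta, was at 25.01 CPM in NEJ634 and 23.1 in NEJ723, 17.9 in NEJ687 and 31.9 ± 1.59 in NEJ146, against 52.4 in NEJ638, 51.7 in NEJ654 and 52.8 in NEJ677. Pold4 was higher in all 3 livers than in all 4 tumours.

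Within sections, tissue spots were ordered by the level of another gene set, averaged over the spot and its adjacent spots, and the replication sum of the top quintile was set against that of the bottom quintile. Ordered by the 25 mitosis genes, the ratio was 1.36 in NEJ634 and 1.24 in NEJ723, 1.36 in NEJ687 and 1.87 ± 0.0465 in NEJ146. In the livers it was 1.15 in NEJ638, 1.09 in NEJ654 and 1.07 in NEJ677. The order of liver spots rests on few mitosis UMIs, 16944 in NEJ638, 6137 in NEJ654 and 3063 in NEJ677, against 66349 to 116660 in the tumour sections. It is thus coarser, and liver and tumour ratios cannot be set against each other like for like. Replication and mitosis genes were thus high in the same regions of all 4 tumours. The ratio was highest in NEJ146, where the sections gave 1.82 to 1.92. The mitosis sum itself also differed most between these quintiles there. Its ratio was 2.31 to 2.52 over the NEJ146 sections and at most 1.72 in the other tumours. NEJ146 also held only spots with at least 8000 UMIs, so the replication ratios do not rank the tumours like for like. The replication sum of NEJ146 section 1 rose from 987 CPM in the bottom quintile to 1875 in the top one, and that of NEJ634 from 1923 to 2621 CPM. Hepatocyte markers moved the opposite way, with a top to bottom ratio of 0.388 in NEJ634 and 0.386 to 0.498 over the NEJ146 sections, and less so at 0.788 in NEJ723 and 0.838 in NEJ687. UMIs per spot were lower in the top quintile of NEJ634, at 22036 against 35018, and of NEJ723, at 14279 against 16980. They were also lower in all 4 NEJ146 sections, at 16621 against 24933 in section 1, and level in NEJ687, at 10440.1 against 10210.0. The top to bottom ratio of tumour markers was 2.95 to 6.01 over the NEJ146 sections, 1.62 in NEJ634 but 0.881 in NEJ723, and it was 1.048 in NEJ687. Red cell precursor markers gave 0.820 in NEJ634 and 1.84 in NEJ723, 1.78 in NEJ687 and 0.947 to 2.64 over the NEJ146 sections. Neutrophil markers gave 0.171 in NEJ634 and 0.652 in NEJ723, 1.81 in NEJ687 and 2.07 to 3.11 over the NEJ146 sections. Macrophage markers gave 0.480 in NEJ634 and 0.962 in NEJ723, 0.830 in NEJ687 and 1.10 to 1.29 over the NEJ146 sections. Collagen genes gave 1.42 in NEJ634 and 1.26 in NEJ723, 0.878 in NEJ687 and 0.497 to 1.06 over the NEJ146 sections. The part of any of these in the replication ratio was not tested.

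**Figure D4:**
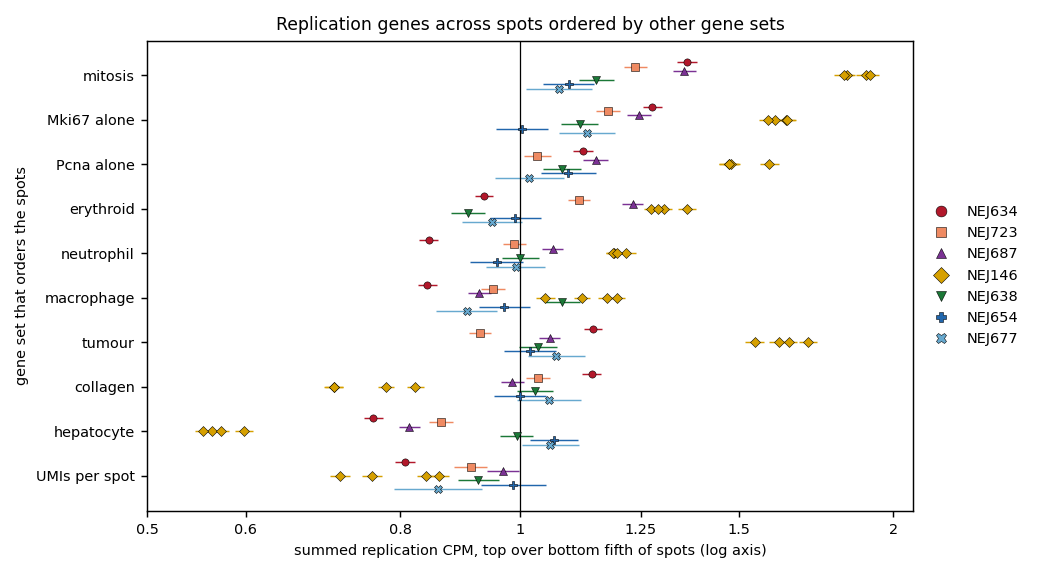
Ratio of the replication sum between the top and bottom quintile of tissue spots (horizontal log axis, 95% interval from counting) when spots are ordered by each gene set or by UMIs per spot (rows), with a symbol per section. By mitosis genes all 10 sections lie above 1, and by hepatocyte genes all 7 tumour sections lie below 1.

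Of the 45 genes, 41 were higher in the mitosis-rich quintile of each of the 4 tumours, against 36.3% of all genes, and the others were Mcm10, Gins4, Rfc1 and Rpa3. The median log2 ratio of the replication genes was 0.45 in NEJ634 and 0.32 in NEJ723, 0.44 in NEJ687 and 0.94 in NEJ146, against 0.20, 0.21, 0.12 and 0.20 for all genes. Uhrf1 was high among them, at 0.87 in NEJ634 and 0.74 in NEJ723, 0.63 in NEJ687 and 1.27 in NEJ146. By role, the chromatin and histone supply genes gave ratios of 1.60 in NEJ634 and 1.45 in NEJ723, 1.48 in NEJ687 and 2.07 ± 0.0804 in NEJ146. Clamp and loader genes gave 1.23 in NEJ634 and 1.19 in NEJ723, 1.297 in NEJ687 and 1.66 ± 0.0814 in NEJ146. The second group was flatter than the first in each of the 4 tumours. Ordered by Mki67 alone, the ratio of the replication sum was 1.28 in NEJ634 and 1.18 in NEJ723, 1.246 in NEJ687 and 1.62 ± 0.0272 in NEJ146, and 41 genes were higher in all 4 tumours, against 27.9% of all genes. Ordered by Pcna alone, with Pcna left out of the sum, it was 1.12 in NEJ634 and 1.03 in NEJ723, 1.15 in NEJ687 and 1.503 ± 0.0565 in NEJ146, and 25 of 44 genes were higher in all 4 against 17.3% of all genes. By Mki67, hepatocyte markers gave 0.463 in NEJ634, 0.898 in NEJ723, 0.923 in NEJ687 and 0.528 to 0.572 over the NEJ146 sections. Red cell precursor markers gave 0.623 in NEJ634, 1.42 in NEJ723, 2.02 in NEJ687 and 1.76 to 3.15 in NEJ146. By Pcna, UMIs per spot were higher in the top quintile of NEJ723 (18045 against 9662.5) and NEJ687 (13092.5 against 6990). In NEJ634 they were lower (26086 against 30216). The part of these was not tested. Single genes give many spots with 0 UMIs, so the orders by Mki67 and by Pcna are coarser than that by the mitosis set. Pcna was at 60.6 to 65.9 CPM in the tumours and Mki67 at 81.7 to 168. The order by Pcna thus rests on fewer UMIs, and its ratios and counts cannot be set against those by Mki67 like for like.

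Ordered by hepatocyte markers, the replication sum fell towards hepatocyte-rich spots of the tumours, with ratios of 0.761 in NEJ634 and 0.863 in NEJ723, 0.813 in NEJ687 and 0.572 ± 0.0190 in NEJ146. In the livers the ratio was 0.993 in NEJ638, 1.06 in NEJ654 and 1.06 in NEJ677. Other markers moved along this order too. Red cell precursor markers had a top to bottom ratio of 0.0919 to 0.150 over the NEJ146 sections and 0.228 in NEJ687, but 0.927 in NEJ723 and 2.002 in NEJ634. Neutrophil markers gave 0.205 to 0.308 over the NEJ146 sections and 0.883 in NEJ687, but 1.58 in NEJ723 and 1.496 in NEJ634. Tumour markers gave 0.192 to 0.336 over the NEJ146 sections, 0.607 in NEJ634, 0.865 in NEJ687 and 0.949 in NEJ723. Macrophage markers gave 0.702 to 0.867 over the NEJ146 sections, but 2.05 in NEJ634, 1.17 in NEJ687 and 1.14 in NEJ723. Collagen genes gave 0.888 to 1.69 over the NEJ146 sections, 0.372 in NEJ634, 1.44 in NEJ687 and 0.756 in NEJ723. UMIs per spot were higher in the hepatocyte-rich quintile of every tumour, at 35414 against 23933 in NEJ634. Their part in the fall was not tested. In all 4 tumours 42 replication genes were lower in the hepatocyte-rich quintile, against 33.2% of all genes, and the exceptions were Mcm10, Gins3 and Rfc1. Mcm10 had log2 ratios of -0.37 in NEJ634 and -0.30 in NEJ723, -0.48 in NEJ687 and 0.20 in NEJ146, so only in NEJ146 was it higher where hepatocyte markers were. Liver by liver it gave -0.33 in NEJ638, -0.17 in NEJ654 and -0.65 in NEJ677, lower in hepatocyte-rich spots of all 3.

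Erythroid markers, the red cell list with its globin genes, gave no common direction. Ordered by erythroid markers, the ratio of the replication sum was 0.935 in NEJ634 and 1.11 in NEJ723, 1.23 in NEJ687 and 1.31 ± 0.0380 in NEJ146. In all 4 tumours 9 of the 45 genes were higher in the erythroid-rich quintile, a share above the 9.30% of all genes that were. Taken singly, the erythroid-rich quintile was the higher one for 12 genes in NEJ634 and 42 in NEJ723, 41 in NEJ687 and 44 in NEJ146 (of all genes, 46.3%, 68.4%, 60.3% and 54.1%). Cdc6 gave log2 ratios of -0.02 in NEJ634 and 0.20 in NEJ723, 0.82 in NEJ687 and 0.90 in NEJ146. Pcna gave -0.12 in NEJ634 and 0.21 in NEJ723, 0.60 in NEJ687 and 0.34 in NEJ146. Like most of the 45, both were higher in the erythroid-rich spots of NEJ723, NEJ687 and NEJ146 and not of NEJ634, and NEJ687 and NEJ146 were the tumours with the most erythroid marker RNA. Neutrophil markers were also higher in the erythroid-rich quintile, with ratios of 3.24 in NEJ634 and 1.13 in NEJ723, 2.74 in NEJ687 and 3.296 to 9.97 over the NEJ146 sections. Hepatocyte markers gave 1.87 in NEJ634 but 1.005 in NEJ723, 0.901 in NEJ687 and 0.592 to 0.621 over the NEJ146 sections, where UMIs per spot were lower in the erythroid-rich quintile (16321 against 24769 in section 1). The part of any of these in the replication ratios, or in the order of the tumours by Pcna, was not tested. Ordered by the tumour markers Afp, Igf2, Dlk1 and Gpc3, the ratio was 1.14 in NEJ634 and 0.928 in NEJ723, 1.06 in NEJ687 and 1.63 ± 0.0670 in NEJ146. Mcm2, Mcm3, Cdc45, Pola1 and Fen1 were higher in the marker-rich quintile of all 4 tumours, 5 of 45 against 10.5% of all genes, a share near the background. Along this order red cell precursor markers gave 0.194 in NEJ634 and 0.247 in NEJ723, 0.509 in NEJ687 and 2.03 to 3.66 over the NEJ146 sections. Neutrophil markers gave 0.258 in NEJ634 and 0.947 in NEJ723, 0.641 in NEJ687 and 3.05 to 4.42 in NEJ146, and hepatocyte markers 0.453 in NEJ634 and 0.974 in NEJ723, 0.859 in NEJ687 and 0.410 to 0.546 in NEJ146. Their part was not tested. Ordered by UMIs per spot, 22 genes were lower in the deepest quintile of all 4 tumours, against 26.9% of all genes, and the sum gave ratios of 0.807 in NEJ634 and 0.912 in NEJ723, 0.968 in NEJ687 and 0.793 ± 0.0678 in NEJ146.

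Neighbouring spots resembled each other in the replication sum. Moran's I, which is near 0 for a random arrangement and nearer 1 where neighbours are alike, was 0.371 in NEJ634 and 0.510 in NEJ723, 0.354 in NEJ687 and 0.486 ± 0.00912 in NEJ146. In the livers it was 0.183 in NEJ638, 0.0717 in NEJ654 and 0.115 in NEJ677. The mitosis sum gave 0.384 in NEJ634 and 0.494 in NEJ723, 0.367 in NEJ687 and 0.437 ± 0.0233 in NEJ146. UMIs per spot were themselves patchy, with an I of 0.625 in NEJ634 and 0.885 in NEJ723, 0.852 in NEJ687 and 0.750 ± 0.0260 in NEJ146. After removing the part that followed UMIs per spot, the replication sum had an I of 0.253 in NEJ634 and 0.105 in NEJ723, 0.0986 in NEJ687 and 0.446 in NEJ146. In the livers it was then 0.115 in NEJ638, 0.0552 in NEJ654 and 0.0175 in NEJ677, so NEJ638 lay above NEJ723 and NEJ687 and the groups overlapped. Of the tumours, I thus fell most in NEJ723 and NEJ687 and least in NEJ146. The spots kept were unlike, since NEJ146 held only spots with at least 8000 UMIs. Tissue spots under 500 UMIs numbered 182 in NEJ723, 361 in NEJ687 and 0 in NEJ634. The part of this difference in the ranking was not tested. With spots under 2000 UMIs left out in place of that fit, Moran's I was 0.133 in NEJ723 and 0.192 in NEJ687, and 0.373 in NEJ634. It was then 0.0326 in NEJ638 and 0.0310 in NEJ654, and all 3 livers lay below these tumours. Single genes were sparse in each spot, and of the 45 the highest values were those of Dut (0.264) and Mcm6 (0.247), both in NEJ723. Values of single genes were not corrected for UMIs per spot. Dut was at 0.107 in NEJ634, 0.119 in NEJ687 and 0.0959 in NEJ146, and Mcm6 at 0.0356, 0.144 and 0.134.

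**Figure D5:**
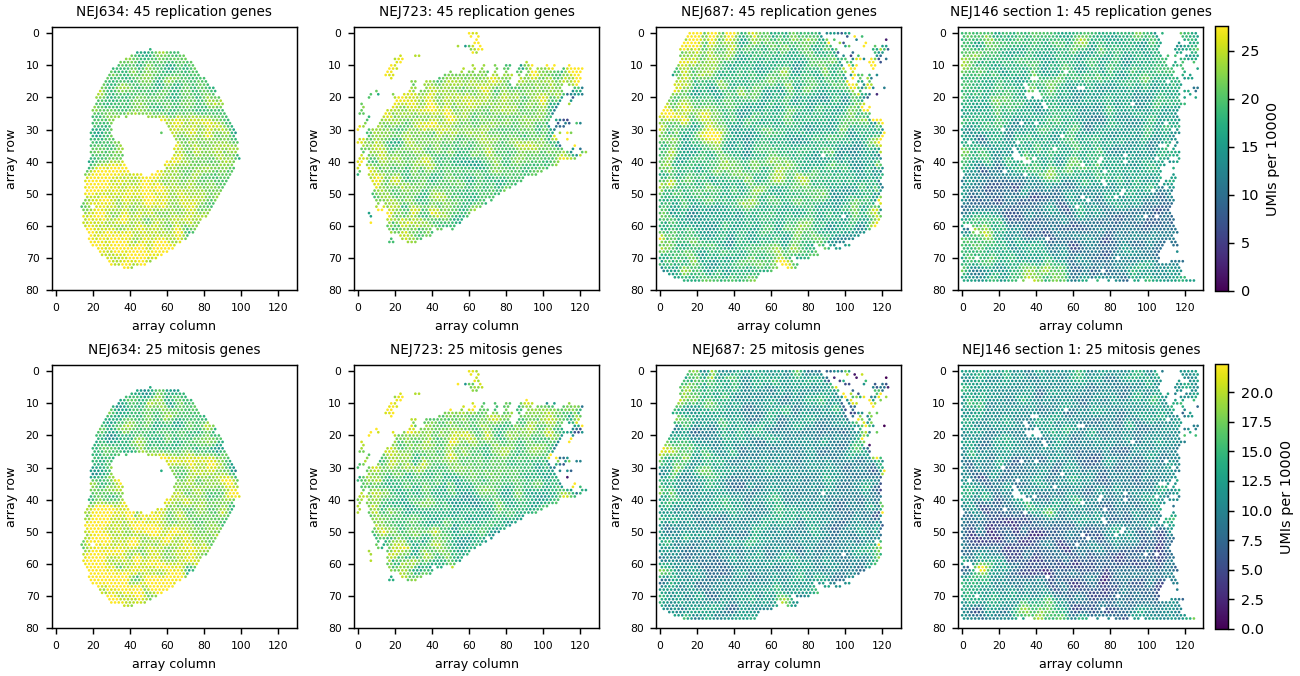
Spot maps of the summed 45 replication genes (upper row) and 25 mitosis genes (lower row) in NEJ634, NEJ723, NEJ687 and NEJ146 section 1, as UMIs per 10000 of each spot averaged with its neighbours (colour, the same scale along a row, topped at its highest values), for tissue spots with at least 500 UMIs. Axes are array columns and rows; both sets are high in the lower left of NEJ634 and low in a band across NEJ146.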

How the data were processed

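RNA of frozen 10 µm sections, stained before capture, was read on Visium slides. The authors deposited UMI counts for every gene in every spot, without normalisation. The submitters' processing notes name Space Ranger 1.3 and mm10 for 6 tissues and Cell Ranger 6.0 for NEJ146, with no build; the methods name another Space Ranger version. Counts were summed over spots called tissue by the deposited position files, or for NEJ146 over spots with at least 8000 UMIs, and given as UMIs per 1000000 (CPM). NEJ146 took array positions from the same barcodes of the other slides. Log2 levels used a pseudocount of 0.1 CPM and as background all genes that averaged 1 CPM or more. Exact Poisson limits at 95% were set on each count; they, like all intervals here, cover counting error only. Nothing was tested between tissues. TMM factors came from edgeR 4.0.16 in R 4.3.3; other steps used Python 3.11.15, numpy 2.4.6, scipy 1.17.1 and pandas 2.3.3, and the scripts were tested on simulated data.

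Spots were ordered by a gene set's UMIs per 10000, averaged over the spot and its adjacent spots, and split into quintiles. Moran's I was taken on the natural log of 1 plus a spot's UMIs per 10000, over the 6 adjacent spots, and its depth-corrected form the residual after a fit on log10 UMIs per spot. Gene positions and overlaps come from GENCODE release M21 on GRCm38.

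The members, gene lists and named genes were chosen with earlier results of these data known. All members are named, with every tissue's value for the widest and narrowest separation of each role and for Pcna, Mcm2 to Mcm7, Rrm2, Tk1, Cdt1, Cdc6, Gmnn, Slbp and Uhrf1, and the other replication genes with the widest and narrowest separation, of which 1 is not reported here. Leaving out NEJ146 or NEJ638 altogether was chosen after seeing the data. No doublet caller was run, since spots are regions.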

Additional observations from a re-analysis of the deposited data

Results flagged for a closer look

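Over the 4 NEJ146 sections, 10 of 69 values had 1 section far from the other 3, where chance gives about 1 in 20 for independent values. These values were not independent, since the sums hold genes that were also checked singly, and most flags fell on section 4. The share flagged can thus not be set against 1 in 20. Section 4 was high in Rrm1 (83.5 CPM, others 70.9 to 72.2), Rrm2 (75.2 CPM, others 59.6 to 61.9), Slbp (39.7 CPM, others 29.9 to 31.3) and Mki67 (91.1 CPM, others 77.8 to 79.9). It was also high in the sums of the MCM helicase (363 CPM, others 323 to 330), the clamp and its loader (235 CPM, others 212 to 216) and chromatin and histone supply (99.0 CPM, others 85.9 to 87.8). Section 1 was low in Orc1 (1.67 CPM, others 2.22 to 2.31), section 3 high in Pold2 (32.8 CPM, others 30.8 to 31.1), and section 2 high in the ratio of the replication sum between quintiles of spots ordered by Pcna (1.59, others 1.47 to 1.48).

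In some tumours the replication sum moved across spots in the direction opposite to all 4 NEJ146 sections, and these differences were not tested. Ordered by red cell precursor markers, the top to bottom ratio was 0.935 in NEJ634, and by tumour markers 0.928 in NEJ723. By collagen genes it was 1.14 in NEJ634 and 1.03 in NEJ723, and by neutrophil markers 0.843 in NEJ634. By macrophage markers it was 0.841 in NEJ634, 0.950 in NEJ723 and 0.927 in NEJ687.

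Barcodes outside the called tissue also carried replication UMIs. Their summed level off tissue was 1980.3 CPM in NEJ634, 2024 CPM in NEJ723 and 1943 CPM in NEJ687, against 347 to 689.6 CPM off tissue in the livers. In NEJ687 this was above the 1859 CPM on tissue, and in the other 5 tissues with a tissue call it was below the level on tissue. Barcodes off tissue held 6.81% of all UMIs in NEJ687 and 27.3% to 43.0% in the other 5. What part such UMIs have in the values of spots on tissue was not tested.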

How the results depend on the processing

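Of 245 values under other settings, 175 moved little. For levels, ratios and Moran's I that means by less than the spread (the SD over the NEJ146 sections or the counting interval), and for counts of genes by no more than 1.5 times. The other 70 moved more. A change of direction was looked for only in the quintile ratios of single tumours and in the sign of Moran's I, with 0 found. Levels and counts were not checked for it, and the order of NEJ687 and NEJ146 turned under median-of-ratios scaling. Over all barcodes the summed level was 2135 CPM in NEJ634, 2101 in NEJ723, 714 in NEJ638, 399 in NEJ654 and 356 in NEJ677. Under TMM it was 1740.2 in NEJ634, 1739.6 in NEJ723, 1613 in NEJ687, 1601 in NEJ146, 773 in NEJ638, 491 in NEJ654 and 455 in NEJ677. Under median-of-ratios scaling it was 1776 in NEJ634, 1735 in NEJ723, 1594 in NEJ687, 1604 in NEJ146, 765 in NEJ638, 486 in NEJ654 and 453 in NEJ677. Without mitochondrial genes and the 50 most abundant ones it was 2827 in NEJ634, 2705 in NEJ723, 2389.6 in NEJ687, 2115 in NEJ146, 1035 in NEJ638, 615 in NEJ654 and 519.9 in NEJ677. Leaving out 1 NEJ146 section gave 1501 to 1566 CPM, 24 to 25 genes past 2-fold, 25 to 28 nearer to Mki67, 28 in the Mki67 order and a Moran's I of 0.483 to 0.490. The genes past 2-fold fell to 11 with a pseudocount of 5 CPM (4.64% of all genes) and to 0 at 4-fold (2.66% of all genes), and those in the Mki67 order to 17 under TMM. Genes nearer to Mki67 than to Pcna numbered 19 to 29 over 16 other settings. Moran's I was 0.462 in NEJ146 over spots with at least 4000 UMIs and 0.522 over those with at least 12000. Over spots with at least 2000 UMIs it was 0.133 in NEJ723, 0.192 in NEJ687, 0.0326 in NEJ638, 0.0310 in NEJ654 and 0.0331 in NEJ677. With neighbours within 2 steps it was 0.334 in NEJ634, 0.477 in NEJ723, 0.311 in NEJ687, 0.429 in NEJ146, 0.132 in NEJ638, 0.0454 in NEJ654 and 0.0929 in NEJ677. After the fit on UMIs per spot it was 0.253 in NEJ634, 0.105 in NEJ723, 0.0986 in NEJ687, 0.446 in NEJ146, 0.115 in NEJ638, 0.0552 in NEJ654 and 0.0175 in NEJ677. The cause of these changes was not tested. The number of tumours above 1 between quintiles of spots did not change under any setting run (4 by mitosis, 3 by erythroid, 0 by hepatocyte and 3 by tumour markers). No paired analysis was possible because replicate numbers exist only within NEJ146. NEJ146 has no deposited tissue call here, and depth left as few as 2 UMIs of a gene (Orc1 in NEJ654 and NEJ677).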
